A study of Rattus norvegicus with 11 samples.

Results

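The cytosolic ribosomal protein genes encode the proteins of the ribosome that works in the cytoplasm, and 77 of the 18507 genes with expression values in rat bladder belonged to them. They were chosen by symbol alone, as rows named Rpl or Rps with a number and, in some, an a or x, together with Rplp0, Rplp1, Rplp2 and Rpsa. Of the 77 genes, 31 encoded proteins of the small subunit and 46 proteins of the large subunit. Bladder tissues of Sprague-Dawley rats were profiled by RNA sequencing, in a model of partial bladder outlet obstruction (PBOO). In the study's methods the rats were adult females, PBOO was made by tying a suture round the outlet of the bladder over a catheter, and the control rats had the incision without the tie. There were 3 PBOO and 3 normal samples at week 4 after surgery, and 2 PBOO and 3 normal samples at week 5, where a further PBOO sample was dropped by the study at library quality control. The columns of the week 4 samples carry the word Input in their names and the normal columns of week 5 are named adult. The libraries of the 2 weeks therefore cannot be told apart from the weeks themselves.

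Ribosomal proteins assemble with ribosomal RNA in the nucleolus, in nearly equal numbers per particle, and most members are needed for the particle to form at all. Their mRNAs are among the most abundant of any cell, and many start with a run of pyrimidines at the cap, the TOP tract, through which the kinase mTORC1 and the binding protein Larp1 control their translation. In growing tissue, MYC and RNA polymerase I raise the supply of ribosomes, and a muscle that enlarges under load is a classical setting of ribosome production.

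The annotated starts of 7 of these mRNAs show what the TOP tract looks like, and that it is not found at every annotated start. Promoter sequences from RefSeq (rat build GRCr8, 250 bases before to 50 bases after the annotated start) were matched by symbol for 62 of the 77 members, with 63 promoters in all. Each line gives 30 bases, 5′ to 3′ on the strand of the gene, of which the last 20 begin at the annotated start, and capitals mark the unbroken run of pyrimidines from that start. The first 5 have a C at the start followed by at least 4 further pyrimidines. Rps28 and Rpl41 are shown because they do not, although Rpl41 had the highest level of all members.
Rpl10: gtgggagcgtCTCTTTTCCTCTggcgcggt
Rps27: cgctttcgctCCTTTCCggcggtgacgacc
Rpl9: aggacgttctCTCTTTgccccatctactgc
Rplp0: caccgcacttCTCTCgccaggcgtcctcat
Rpl39: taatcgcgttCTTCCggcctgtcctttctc
Rps28: ccctgctcacgtgactcctctccgctagat
Rpl41: ctcggaagtgacgacaccaagcacgccatt
These stretches lie at chrX:157205840-157205869 on the plus strand for Rpl10, at chr2:177964587-177964616 on the minus strand for Rps27 and at chr14:43247580-43247609 on the plus strand for Rpl9. They lie at chr12:46718371-46718400 on the minus strand for Rplp0 and at chrX:121195877-121195906 on the minus strand for Rpl39. Those without the tract at the annotated start lie at chr7:15311314-15311343 for Rps28 and chr7:1563478-1563507 for Rpl41, both on the minus strand.

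A start of the TOP kind, with C first and at least 4 pyrimidines after it, was found in 24 of the 63 promoters of members (38.1%), against 2.63% of all 33469 promoters. The Ets-type motif CCGGAAG, searched on both strands over the 300 bases, was in 20 of the 63 (31.7%) and in 8.75% of all promoters. The YY1-type motif ATGGCGG, searched likewise, was in 15 of the 63 (23.8%) and in 4.80% of all, and neither motif contains the other. Of the 14320 promoters of genes with expression values, 2.84% had the TOP start, 13.5% the Ets-type motif and 7.75% the YY1-type motif. These matches describe the annotated windows only. All 77 members also have at least 1 pseudogene symbol in the RefSeq annotation, of 908 such symbols for ribosomal proteins, so reads may be shared with near-identical copies and single values are uncertain.

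Expression was deposited as FPKM, a count of sequenced fragments corrected for the length of the gene and the size of the library, and so a share of each library. Read depth is unknown, because the table holds no counts. Rpl41, a very short protein of the large subunit, had the highest member level in each of the 4 groups, with a mean of 4832 FPKM in normal and 2887 FPKM in PBOO tissue at week 4, and 2179 FPKM and 2638 FPKM at week 5. The median member stood at 1454, 833, 697 and 867 FPKM in the same order of groups. Rplp2, a protein of the stalk that recruits elongation factors, was the lowest member above 0 at week 4, with group means of 70.1 and 35.3 FPKM. Rpl35a was listed at 0 in all 6 samples of week 4 and at 2.57 and 3.94 FPKM in the groups of week 5, so it is left out of week 4. At week 4, 4871 genes were listed at 0 in every sample, against 403 at week 5, and such a 0 may be a failed estimate.

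The members together held a smaller share of all listed FPKM in PBOO than in normal bladder tissues at week 4, and a larger share at week 5. At week 4 the 3 normal samples held 20.03%, 20.7% and 20.5% and the 3 PBOO samples 15.4%, 12.1% and 10.8%, that is, 20.4% ± 0.36 (SD, n = 3) against 12.8% ± 2.37 (SD, n = 3). At week 5 the normal samples held 13.2%, 12.7% and 12.2% and the PBOO samples 13.8% and 16.3%, that is, 12.7% ± 0.49 (SD, n = 3) against 15.1% ± 1.81 (SD, n = 2). The groups did not overlap in either week, although PBOO replicate 1 of week 5 lay only just above the normal samples. The normal samples of the 2 weeks themselves stood far apart, at a mean of 20.4% and 12.7%. No test was made of this share, since it is a sum over chosen genes.

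**Figure D1:**
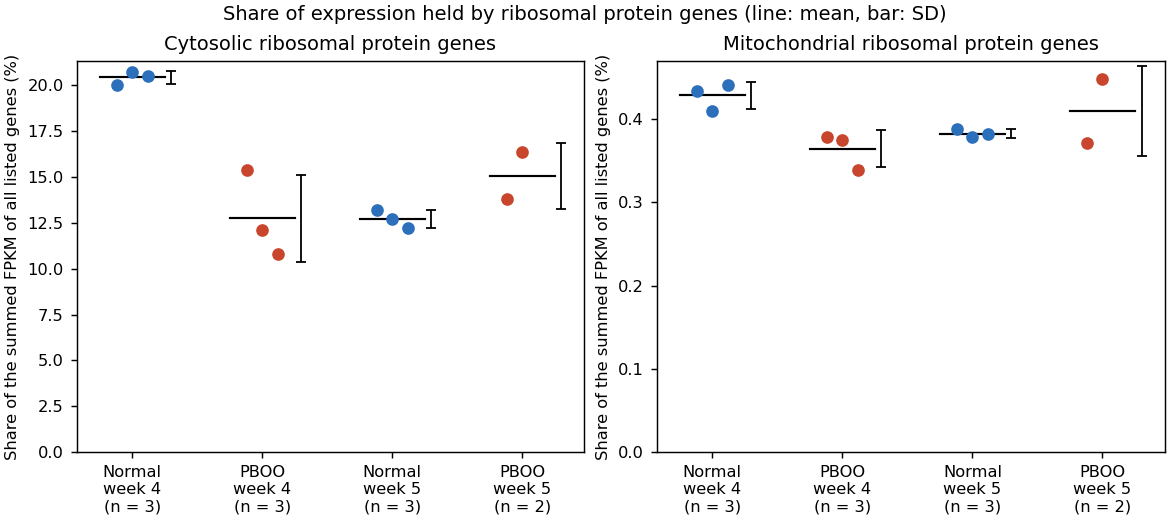
Share of the summed FPKM of all listed genes, in percent, held by cytosolic ribosomal protein genes (left) and mitochondrial ribosomal protein genes (right). Points are samples (blue, normal; red, PBOO), lines are group means and bars are SD; the cytosolic share was 20.03% to 20.7% in normal and 10.8% to 15.4% in PBOO samples at week 4, and 12.2% to 13.2% against 13.8% and 16.3% at week 5.

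Both subunits took part in about the same proportion. The ratio of small to large subunit FPKM was 0.744 ± 0.007 in normal and 0.728 ± 0.006 in PBOO samples at week 4 (SD, n = 3 each), and 0.789 ± 0.002 (SD, n = 3) and 0.801 ± 0.019 (SD, n = 2) at week 5. Among the 100 genes with the highest FPKM, members numbered 57, 56 and 55 in normal and 49, 44 and 42 in PBOO samples of week 4. At week 5 the normal samples counted 46, 47 and 45 and the PBOO samples 48 and 56.

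At week 4, every one of the 76 members tested had a lower mean in PBOO than in normal bladder tissues, with FPKM as deposited, while under quantile normalization Rpl10 stood at a log2 fold change of 0.02. The PBOO mean was between 37.0% (Rps9) and 74.8% (Rpl17) of the normal mean, with a median of 58.5%, and 74 of the 76 lay between 50% and 70%. The median log2 fold change was -0.79, against -0.25 for all 11320 genes tested. In 75 of the 76 members (98.7%) all PBOO samples lay below all normal samples, as they did in 34.9% of all genes tested. No member lay above without overlap, against 6.63% of all genes.

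By limma with Benjamini-Hochberg adjustment, no member passed an adjusted p of 0.05 at week 4 in either direction, beside 0.177% of all genes that passed as lower and 0.336% as higher. The unadjusted limma p was under 0.05 in 75 of the 76 members, all lower, against 26.2% of all genes lower and 5.76% higher. The adjusted p of the members ran from 0.0503 to 0.321 and was under 0.1 in 73. Leaving out PBOO replicate 1, which was the highest of the 3 PBOO samples in 74 of the 76 members, 73 members had an adjusted p under 0.05. In that fit 1658 of all 11316 genes passed as lower and 468 as higher, so the gain was not confined to the members. A pseudocount of 1 gave 4 members, beside 52 of all 11320 genes as lower, and the other alternatives gave 0 members.

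**Figure D2:**
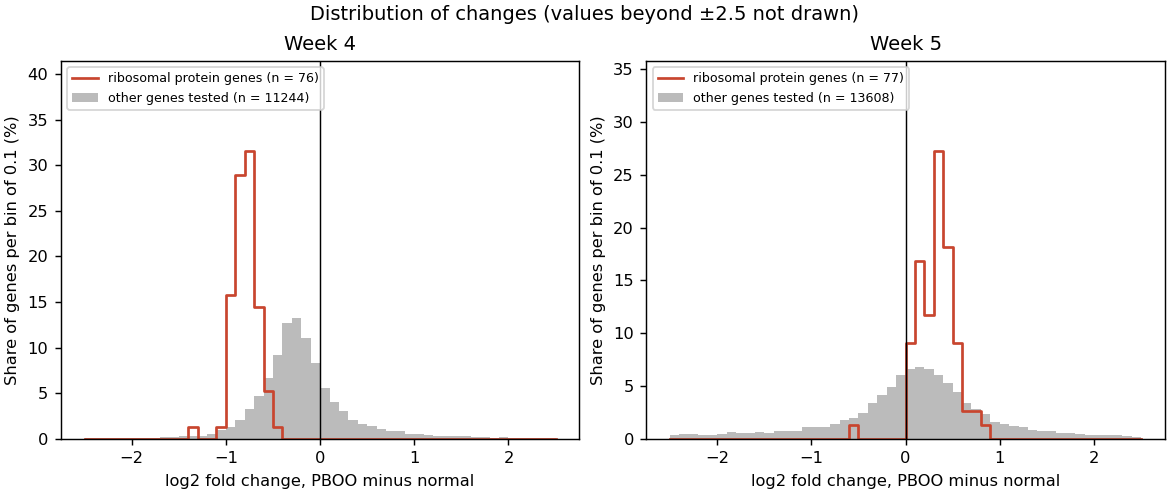
Distribution of the log2 fold change (PBOO minus normal, x axis) as the share of genes per bin of 0.1 (y axis, in percent), for ribosomal protein genes (red line) and other genes tested (grey bars). At week 4 the members formed a narrow peak around -0.79 while all genes had a median of -0.25, and at week 5 they peaked around 0.34 with a median of 0.12 for all genes; under quantile normalization the member medians were -0.44 and 0.17.

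The 3 PBOO samples of week 4 stood at different levels. The median member stood at 70% of the normal mean in replicate 1, at 53.6% in replicate 2 and at 49.7% in replicate 3. Of the 8 smooth muscle markers, 7 had an unadjusted p under 0.05 as higher in the same samples, and 2 of them rose with an adjusted p under 0.05. The summed markers stood at 25460 to 27530 FPKM in normal and at 50990, 62040 and 82290 FPKM in PBOO samples. The 10 highest genes of each sample held 9.35% to 9.73% of all FPKM in normal and 13.7%, 15.6% and 20.1% in PBOO samples. With the 10 highest genes that are not members left out of the sum, the members' share was 22.5% ± 0.33 in normal against 15.2% ± 2.30 in PBOO samples (SD, n = 3 each). Fewer cells of a type and less RNA per cell cannot be told apart in such tissue samples.

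Urothelial markers were lower in the same samples, with 8 of 9 at an unadjusted p under 0.05 and sums of 5889 to 7464 FPKM in normal and 3749 to 4400 FPKM in PBOO samples, and Krt7 listed at 0. Of the leukocyte markers, 1 of 12 was past an unadjusted p of 0.05, as lower, and Cd79a was at 0. Cycling cell markers had 5 of 8 at an unadjusted p under 0.05, all higher. Normal replicate 1 stood apart from the other normal samples of week 4 in leukocyte markers, with 64.4 against 414 and 464 FPKM, and in fibroblast markers, with 1088 against 4054 and 4125 FPKM. Without that sample the median of the members was -0.82. The part of these cell types in the members' values was not tested.

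All 3 genes of the factor-binding stalk were lower in PBOO samples at week 4, without overlap and with an unadjusted p under 0.05. Rplp0, the stalk's base, stood at 2385, 2361 and 2312 FPKM in normal and at 1806, 1277 and 1215 FPKM in PBOO samples, with a log2 difference of -0.74 ± 0.18 (SE; limma adjusted p = 0.0733). Rplp1 stood at 2773, 3004 and 2974 FPKM in normal and at 2134, 1500 and 1521 FPKM in PBOO samples (-0.78 ± 0.18, limma adjusted p = 0.0670). Rplp2 stood at 78.4, 66.5 and 65.5 FPKM against 47.4, 31.5 and 26.9 FPKM (-1.03 ± 0.21, limma adjusted p = 0.0559). In each of these genes the highest PBOO sample, replicate 1, was below the lowest normal sample. Rplp0 is also known as a reference gene for normalization.

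Rpl5 and Rpl11 bind Mdm2 when they are not built into ribosomes and thereby stabilize p53. Rpl5 stood at 1841, 1882 and 1842 FPKM in normal and at 1254, 934 and 789 FPKM in PBOO samples (-0.93 ± 0.19, limma adjusted p = 0.0553). Rpl11 stood at 1064, 1134 and 1106 FPKM against 716, 628 and 605 FPKM (-0.77 ± 0.12, limma adjusted p = 0.0503). Both were below the normal range in all 3 PBOO samples, and Rpl11 had one of the smallest adjusted p-values among the members.

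In the core of the large subunit, Rpl3, which reaches towards the peptidyl transferase centre, stood at 1386, 1457 and 1446 FPKM in normal and at 1043, 776 and 681 FPKM in PBOO samples (-0.80 ± 0.18). Rpl10, which is loaded last and completes the particle, stood at 1552, 1813 and 1748 FPKM against 1251, 1093 and 1154 FPKM (-0.55 ± 0.13). Rpl10 had one of the smallest differences of all members, and its PBOO samples lay close together. Of the 5 members at the peptidyl transferase centre and tRNA sites, all 5 were lower without overlap, with a median of -0.75.

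The peptide exit tunnel, through which the new chain leaves, is lined by Rpl17 and Rpl39 among others, and these 2 had the smallest log2 fold changes of all members. Rpl17 stood at 1176, 1039 and 1669 FPKM in normal and at 1362, 607 and 936 FPKM in PBOO samples (-0.47 ± 0.32, limma adjusted p = 0.321). It was the only member of the 76 whose groups overlapped, and its log2 fold change was -0.75 without PBOO replicate 1, -0.17 without PBOO replicate 2 and -0.27 without normal replicate 3. Rpl39 stood at 573, 663 and 646 FPKM against 438, 410 and 465 FPKM (-0.52 ± 0.11). Of the 9 members assigned to the tunnel, 8 had an unadjusted p under 0.05, all lower, and the median of the 9 was -0.77.

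On the small subunit, Rps6, the phosphorylation target of the S6 kinases below mTORC1, stood at 986, 1042 and 1081 FPKM in normal and at 701, 521 and 485 FPKM in PBOO samples (-0.88 ± 0.16). Rpsa, a protein of the mRNA exit side also known as a laminin-binding protein, stood at 2140, 2164 and 2200 FPKM against 1581, 1146 and 1084 FPKM (-0.79 ± 0.18). Rps27a, made as a fusion with ubiquitin, stood at 869, 689 and 659 FPKM against 462, 371 and 361 FPKM (-0.89 ± 0.16). All 3 genes were below the normal range in every PBOO sample.

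Rps9, a small subunit protein of the particle's early assembly, had the lowest log2 fold change of all at -1.34 ± 0.46, but this rested on uneven samples. It stood at 114, 121 and 319 FPKM in normal and at 88.7, 75.9 and 40.2 FPKM in PBOO samples. Without normal replicate 3 its log2 fold change was -0.86, and without PBOO replicate 3 it was -0.997 with an unadjusted p above 0.05.
Rps27 and Rps28, which like Rps15a and Rps20 are genes of Diamond-Blackfan anaemia, an inherited failure of red cell production, were also among the members with the lowest values. Rps27 stood at 2687, 2818 and 2783 FPKM in normal and at 1836, 1356 and 1148 FPKM in PBOO samples (-0.96 ± 0.20). Rps28 stood at 1159, 1073 and 1080 FPKM against 760, 565 and 445 FPKM (-0.94 ± 0.20). All 19 tested genes of this disease were lower without overlap, with a median of -0.82 and a range from -0.96 (Rps27) to -0.53 (Rps20), which is close to the median of all members.

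Rpl21, Rps15a and Rpl12 completed the members with the greatest differences, at -0.95 ± 0.17, -0.95 ± 0.16 and -0.94 ± 0.14. At the other end Rps20 stood at 379, 406 and 391 FPKM in normal and at 292, 258 and 266 FPKM in PBOO samples (-0.53 ± 0.10). Departures of members from each other were then tested by subtracting the mean of the members in each sample. On that scale no member had an adjusted or an unadjusted limma p under 0.05 at week 4. The widest departures were -0.55 for Rps9 and -0.23 for Rplp2 below the mean, and 0.33 for Rpl17 and 0.28 for Rpl39 above it.

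**Figure D3:**
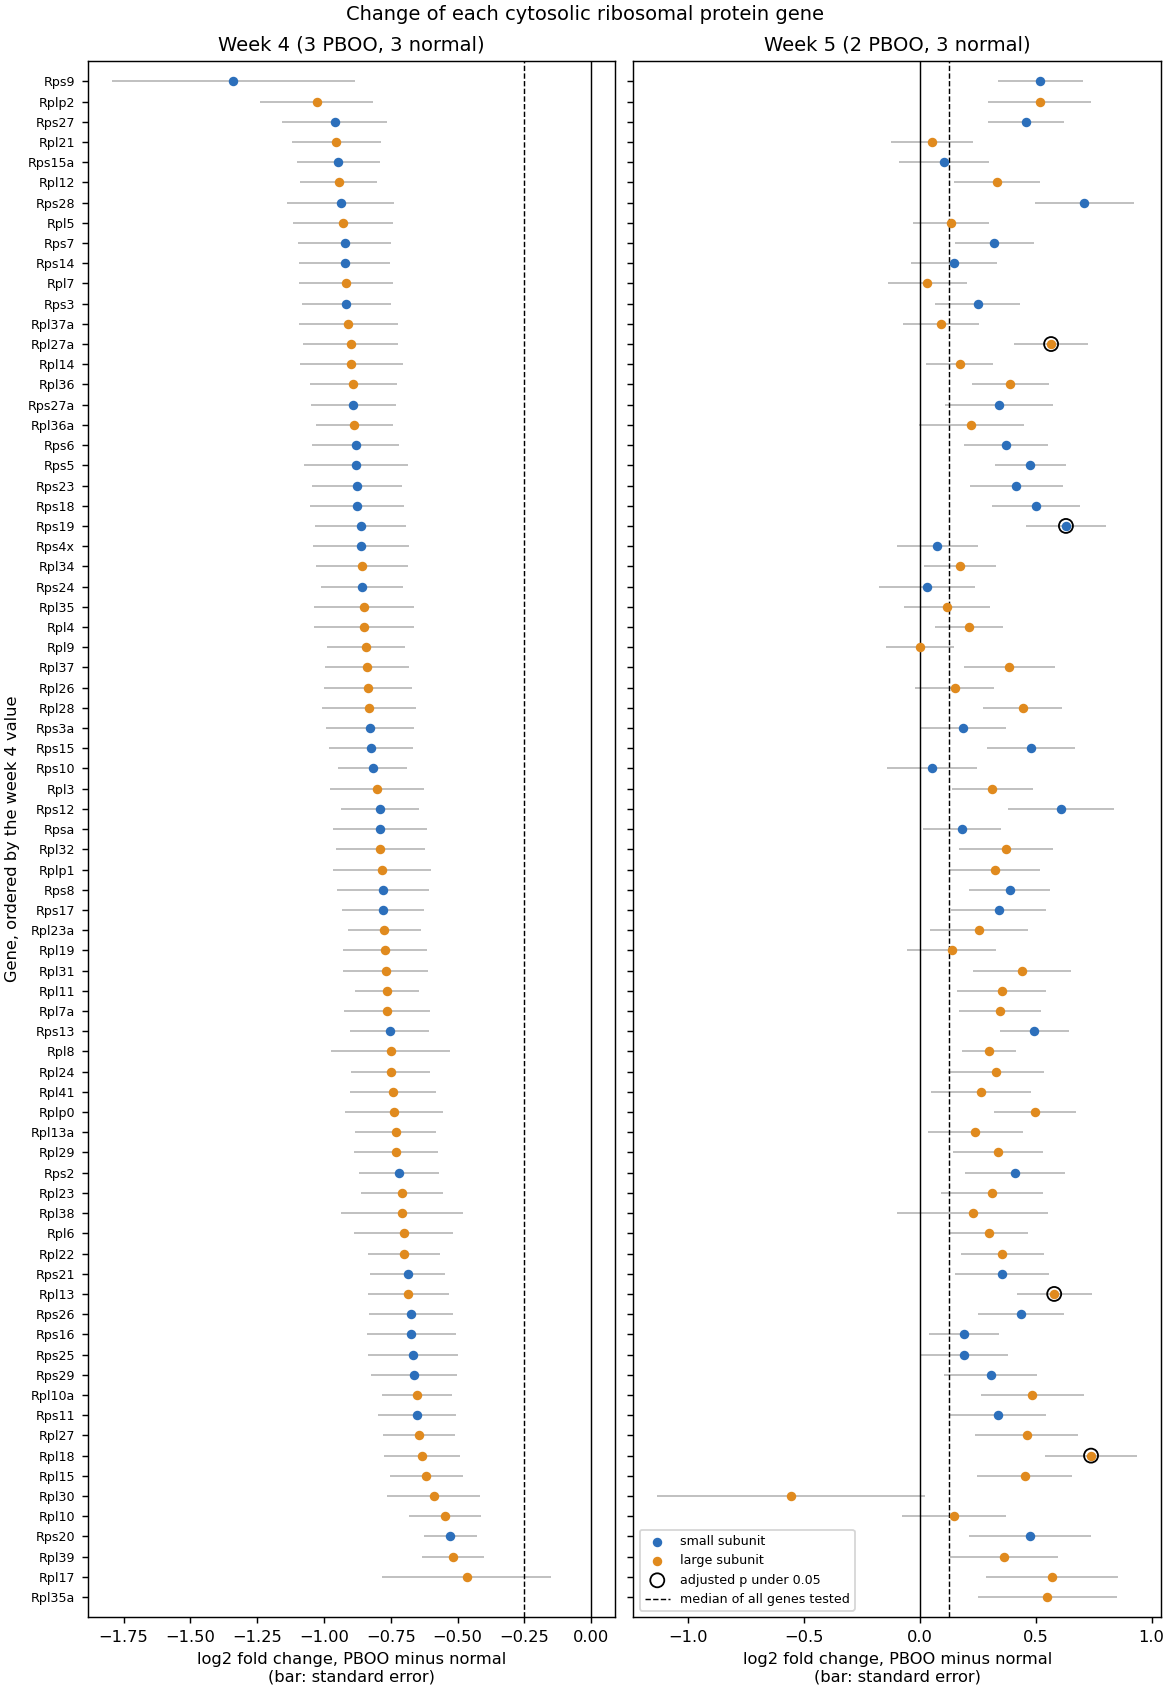
Log2 fold change (x axis, PBOO minus normal; bars, standard error) of each member (y axis, ordered by the week 4 value) at week 4 (left) and week 5 (right), coloured by subunit. Circles mark members with an adjusted limma p under 0.05, all at week 5, the dashed line is the median of all genes tested, and 1 member is not drawn. With FPKM as deposited all 76 members tested at week 4 were below 0 and 76 of 77 at week 5 above, while under the other scalings 75 or 76 were below and 62 to 71 above.

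At week 5, 76 of the 77 members had a higher mean in PBOO than in normal bladder tissues, or 62 to 71 under the other scalings, and 5 of the 77 rose with an adjusted limma p under 0.05 (6.49%), a smaller share than among all 13685 genes tested, of which 15.5% rose and 14.5% fell. No member fell. The PBOO mean was a median of 128% of the normal mean, with the lowest at 86.2% (Rpl30), and no member differed by more than 2-fold. The median log2 fold change was 0.34, against 0.12 for all genes tested. The unadjusted limma p was under 0.05 in 16 members (20.8%), all higher, against 24.6% of all genes higher and 18.8% lower. In 45 members (58.4%) both PBOO samples lay above all normal samples, against 35.3% of all genes, and no member lay below, against 25.0%.

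The 2 PBOO samples of week 5 stood at different levels. The median member stood at 109% of the normal mean in replicate 1 and at 148% in replicate 2, and replicate 2 was the higher in 74 of the 77 members. Replicate 2 lay above all normal samples in 75 members, and replicate 1 in 46 and below all of them in 7. Without replicate 1 the median log2 fold change of the members was 0.56, beside 0.14 for all genes, and without replicate 2 it was 0.13, beside 0.08. Such fits leave a single PBOO sample, which is assumed to vary as the 3 normal samples do, so their calls have no spread of PBOO samples behind them. The numbers of members that pass in these fits are therefore not given. With any 1 of the normal samples left out, no member passed an adjusted p of 0.05. In those fits 768 to 1216 of all genes passed as higher and 1079 to 1338 as lower, of 13606 to 13738 tested.

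Of the 5 members that rose at week 5, 4 are given here. Rpl18, a protein of the large subunit, stood at 253, 278 and 235 FPKM in normal and at 353 and 512 FPKM in PBOO samples, with a log2 difference of 0.74 ± 0.20 (SE; limma adjusted p = 0.0407) and 0.47 without PBOO replicate 2. Both PBOO samples were above the normal range, and replicate 2 was the higher. Rpl13, a large subunit protein whose gene is mutated in a human bone growth disorder, stood at 576, 555 and 529 FPKM against 741 and 921 FPKM (0.58 ± 0.16, limma adjusted p = 0.0456). Rpl27a, known from a mouse mutant with stabilized p53, stood at 546, 576 and 506 FPKM against 734 and 877 FPKM (0.57 ± 0.16, limma adjusted p = 0.0457). Rps19, the first gene found mutated in Diamond-Blackfan anaemia, stood at 359, 319 and 338 FPKM against 453 and 605 FPKM (0.63 ± 0.17, limma adjusted p = 0.0435). In none of the 4 genes did the groups overlap.

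Other members with large log2 fold changes at week 5 did not pass the adjusted test. Rps28 stood at 494, 495 and 455 FPKM in normal and at 636 and 971 FPKM in PBOO samples (0.71 ± 0.21, limma adjusted p = 0.0564), with 0.40 without PBOO replicate 2. Rps12, a small subunit protein that in flies marks cells with defective ribosomes for elimination, stood at 339, 352 and 318 FPKM against 403 and 651 FPKM (0.61 ± 0.23), with 0.96 without PBOO replicate 1 and 0.26 without replicate 2. Both had groups that did not overlap, and a wide gap between the PBOO samples. Rpl17 stood at 747, 492 and 645 FPKM against 1166 and 724 FPKM (0.57 ± 0.28), and here replicate 1 was the higher. Its groups overlapped, and its log2 fold change was 0.23 without PBOO replicate 1 and 0.91 without replicate 2.

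The stalk genes at week 5 had no overlap between groups. Rplp0 stood at 1730, 1785 and 1578 FPKM in normal and at 2434 and 2349 FPKM in PBOO samples (0.50 ± 0.18, limma adjusted p = 0.0886). It was one of the few members in which both PBOO samples were close together. Rplp1 and Rplp2 had log2 fold changes of 0.32 ± 0.20 and 0.52 ± 0.22, which were 0.505 and 0.823 without PBOO replicate 1, and 0.14 and 0.21 without replicate 2. Rps6 stood at 574, 583 and 512 FPKM against 624 and 827 FPKM (0.37 ± 0.18, limma adjusted p = 0.174), a small gap above the normal range in replicate 1 and a wide one in replicate 2.

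Rpl30 was the only member with a lower mean in PBOO tissues at week 5, and its 2 samples went in opposite directions. It stood at 521, 519 and 471 FPKM in normal samples, at 167 FPKM in PBOO replicate 1 and at 701 FPKM in PBOO replicate 2 (-0.56 ± 0.58, limma adjusted p = 0.498). Without replicate 1 the log2 fold change was 0.48, and without replicate 2 it was -1.59. Rpl30 also helps to decode selenocysteine, and it was lower at week 4 in all 3 PBOO samples, at 695, 761 and 514 FPKM against 1009, 1038 and 883 FPKM.

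Several members of high level had small log2 fold changes at week 5. Rpl9 stood at 860, 793 and 821 FPKM in normal and at 798 and 853 FPKM in PBOO samples (0.00 ± 0.15), although it had been at 472, 507 and 500 FPKM against 333, 265 and 235 FPKM at week 4. Rps24 and Rpl7 each had a log2 fold change of 0.03, with SE of 0.21 and 0.17. Rps14, encoded in the human region lost in a form of myelodysplasia, had the second highest normal level at week 5 and stood at 1938, 1867 and 1790 FPKM against 1909 and 2232 FPKM (0.15 ± 0.18). Rpl41 stood at 2329, 2095 and 2112 FPKM against 2270 and 3006 FPKM (0.26 ± 0.21). In all 5 genes, PBOO replicate 1 lay within the normal range or below it.

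Relative to the mean of the members in each sample, 3 members at week 5 were higher and 1 lower at an unadjusted limma p under 0.05. Of all members, 1 was higher at an adjusted p under 0.05 and 0 were lower. Those given here are Rpl18 (0.41) and Rps28 (0.38) above the mean and Rps24 (-0.29) below it, none of them with an adjusted p under 0.05. A few of 77 members would reach such an unadjusted p without any departure, so these do not set the named members apart. The share of all genes on that scale is not given here. Rpl30 had the lowest relative value at -0.88, with an unadjusted limma p of 0.0917, and a wide gap between its 2 PBOO samples. Among the other fixed members, Rpl5, Rpl11, Rpl3, Rpl10, Rpsa, Rps27a and Rpl39 had week 5 log2 fold changes from 0.13 to 0.36, none with an unadjusted p under 0.05.

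**Figure D4:**
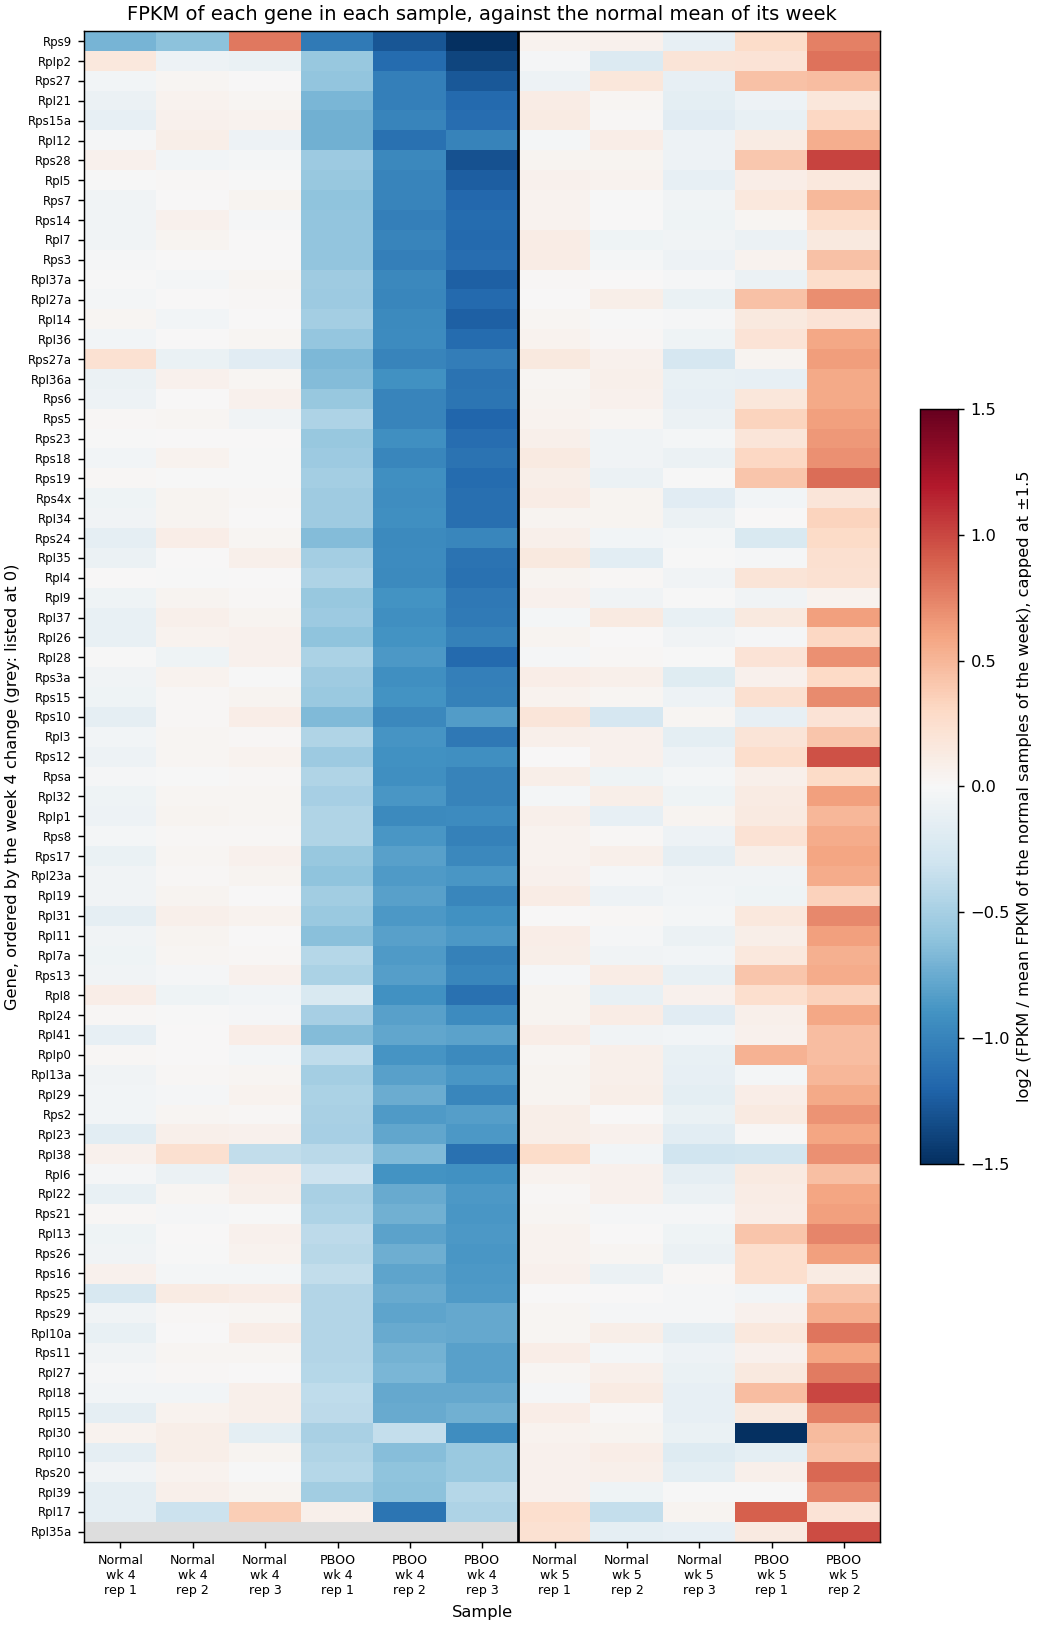
Log2 of the FPKM of each member (rows, ordered by the week 4 change; 1 member is not drawn) in each of the 11 samples (columns) over the mean of the normal samples of the same week; blue is below that mean, red above, grey is listed at 0, and colours are capped at ±1.5. The PBOO samples of week 4 are blue in nearly all rows, with replicate 1 the palest (median 70% of the normal mean), and at week 5 replicate 2 (median 148%) is redder than replicate 1 (109%).

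The PBOO effect on the members was then compared between the weeks, by the interaction term of a limma fit over all 11 samples. The effect was higher at week 5 than at week 4, with an adjusted p under 0.05, in 73 of 76 members (96.1%), against 26.5% of all 11296 genes tested, and lower in none, against 13.5%. At an unadjusted p under 0.05 it was higher in 74 members (97.4%), against 34.6% of all genes, and lower in none, against 15.7%. The median difference was 1.07 on the log2 scale, beside 0.35 for all genes, and it ranged from 0.03 for Rpl30 to 1.86 for Rps9. In 45 members the PBOO samples lay wholly below the normal samples at week 4 and wholly above them at week 5. Of all genes tested in each week, 34.9% lay below at week 4 and 35.3% above at week 5. The share of all genes that did both was not counted. The 3 members that did not pass were Rpl17, Rpl30 and Rpl38, and the number that passed was 36 under quantile normalization.

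Rps9 had a difference of 1.86 ± 0.59 (SE; limma adjusted p = 0.0295) and Rps28 of 1.65 ± 0.31 (limma adjusted p = 0.00267). Both weeks enter this difference with their own controls, whose members stood at different levels. Across the 76 members, the mean level of the normal samples of week 5 was a median of 0.463 of that at week 4, from 0.135 for the lowest ratio to 1.96 for the highest. Rpl8, for example, had a normal mean of 333 FPKM at week 4 and of 45.0 FPKM at week 5, while that of Rpl7a was 393 FPKM and 770 FPKM. The order of the members was more alike within a week than between the weeks. As a description over 76 members that share libraries, Pearson's r between the mean levels of normal and PBOO samples was 0.991 at week 4 and 0.982 at week 5 (Spearman's rho 0.984 and 0.957), and between the normal samples of the weeks 0.796 (rho 0.762).

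Members with and without a TOP start, by the rule above at the annotated start, had similar values. Some of those without one have a pyrimidine run that begins with T there, of 19 bases in Rpl27a and 9 in Rps24. The split may thus leave TOP mRNAs on both sides, and whether the tract mattered was not tested. The median log2 fold change at week 4 was -0.83 in the 23 tested members with a TOP start, such as Rpl10, Rps27, Rpl9, Rplp0 and Rpl39 shown above, and -0.83 in the 38 without one. It was -0.75 in the 15 members with no promoter entry. The medians of week 5 were 0.36, 0.33 and 0.34 in the same order. Rpl10 and Rpl39, at the weak end, and Rps27, near the strong end, all begin with such a tract.

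Other genes of the TOP class, elongation factors and their partners, lay between the members and all genes at week 4. Of the 19 tested, 16 had an unadjusted p under 0.05, all lower, with a median of -0.61, and 1 fell with an adjusted p under 0.05. This was Naca, a chaperone at the tunnel exit, with means of 129 ± 6.45 and 74.5 ± 7.17 FPKM in normal and PBOO samples (SD, n = 3 each; -0.79 ± 0.11 SE, limma adjusted p = 0.0483). Fau, a ribosomal protein made as a fusion whose symbol falls outside the pattern, was looked up because of that role and had a log2 fold change of -0.79. At week 5, 6 of 20 had an unadjusted p under 0.05 as higher and 1 as lower, with a median of 0.24. Of these, Pabpc1, the cytoplasmic poly(A)-binding protein, rose to a mean of 1076 ± 91.4 (SD, n = 2) over a normal mean of 569 ± 32.0 (SD, n = 3), both in FPKM, at 0.92 ± 0.15 (SE; limma adjusted p = 0.00915). Fau was at 0.37.

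The machinery that builds ribosomes had medians nearer to 0 than the members at week 4. Among all genes tested, 26.2% were lower at an unadjusted p under 0.05, and the median was -0.25. The medians of the initiation factors and of mTORC1 and MYC control were near that of all genes. Of 45 ribosome biogenesis genes, 29 had an unadjusted p under 0.05, all lower, and the median was -0.40. RNA polymerase I genes had 6 of 14 and a median of -0.35, initiation factors 15 of 28 and a median of -0.27, and genes of mTORC1 and MYC control 6 of 21 and a median of -0.24, all of those counted being lower. No gene of these 4 lists passed an adjusted p of 0.05 at week 4. Of 6 paralogs of ribosomal proteins, 3 were lower at an unadjusted p under 0.05, with a median of -0.42.

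In the week 5 comparison the same lists held a few genes that passed the adjusted test. Among all genes tested, 15.5% passed as higher and 14.5% as lower. Ribosome biogenesis had 3 of 54 higher and 1 lower, with a median of 0.11. The gene with the highest value among the 3 was Fbl, the rRNA methyltransferase of nucleolar particles, whose normal mean was 33.0 ± 2.07 (SD, n = 3) and whose PBOO mean was 53.3 ± 13.9 (SD, n = 2), both in FPKM (0.66 ± 0.18 SE, limma adjusted p = 0.0442). RNA polymerase I had 4 of 15 higher and a median of 0.29, with Znrd1, a small subunit of the enzyme, at 0.83 ± 0.17 (limma adjusted p = 0.0163). Initiation factors had 1 of 29, Eif6, which keeps the large subunit from joining too early, at 0.66 ± 0.16 (limma adjusted p = 0.0299), and a median of 0.06. Genes of mTORC1 and MYC control had 3 of 23 and a median of 0.06, with Mxd1, which competes with MYC for Max, with a normal mean of 15.8 ± 0.72 (SD, n = 3) and a PBOO mean of 68.2 ± 28.9 (SD, n = 2), both in FPKM (2.03 ± 0.26 SE, limma adjusted p = 0.00429). None of the 6 paralogs had an unadjusted p under 0.05, and their median was 0.11.

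**Figure D5:**
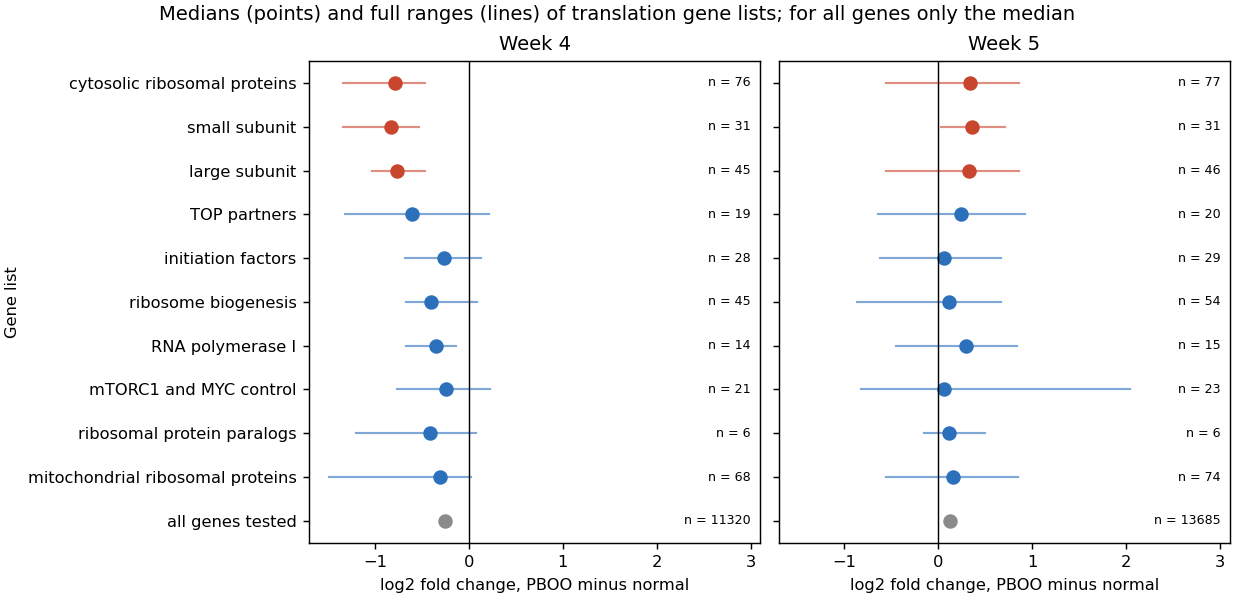
Median (points) and full range (lines) of the log2 fold change (x axis, PBOO minus normal) for the members, their subunits and other lists of translation genes (y axis; n is the number tested), at week 4 (left) and week 5 (right). At week 4 the members had a median of -0.79 (small subunit -0.83, large subunit -0.77) and the other TOP genes one of -0.61, while all genes were at -0.25; at week 5 the medians lay between 0.06 and 0.35.

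Mitochondrial ribosomal protein genes, which encode the separate ribosome of that organelle, had a median nearer to 0 than the cytosolic set at week 4. Of 76 such genes, 68 were tested, and 36 had an unadjusted p under 0.05, all lower, with a median of -0.31. Of all genes tested at week 4, 26.2% were lower at that p, with a median of -0.25. Their share of all FPKM was 0.428% ± 0.016 in normal and 0.364% ± 0.022 in PBOO samples (SD, n = 3 each). At week 5, 6 of 74 rose and 1 fell with an adjusted p under 0.05, beside 15.5% and 14.5% of all genes, and the median was 0.16. Other genes of similar abundance, with a mean of at least 200 FPKM in the week, had medians of -0.07 at week 4 (272 genes) and 0.28 at week 5 (234 genes). The members' median at week 5, 0.34, was near that of these other abundant genes.

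The cell type markers stood very differently at week 5. All 8 smooth muscle markers fell with an adjusted limma p under 0.05, and their sum was 24740 to 28980 FPKM in normal and 1852 and 992 FPKM in PBOO samples. Fibroblast markers fell in 7 of 8, with sums of 1521 to 1939 FPKM in normal samples and of 121.5 and 173.3 FPKM in PBOO replicates 1 and 2. Leukocyte markers rose in 5 of 12, with sums of 36.4 to 82.1 FPKM in normal samples and of 208 and 1129 FPKM in PBOO replicates 1 and 2, and Ms4a1 was listed at 0 in the normal samples. Nerve and glia markers fell in 5 of 7, with sums of 778 to 833 FPKM in normal samples and of 1317 and 728 FPKM in PBOO replicates 1 and 2. These sums were almost wholly Uchl1, which did not fall, with means of 773 FPKM in normal and 1017 FPKM in PBOO samples. Of the 10 urothelial markers 3 fell and 1 rose, with sums of 7419 to 9335 FPKM in normal and of 7337 and 8065 FPKM in PBOO samples. No cycling cell marker of 8 had an unadjusted p under 0.05, but their sums were 4.42 FPKM in PBOO replicate 1 and 93.7 FPKM in replicate 2, against 4.11 to 13.6 FPKM in normal samples. Red cell markers summed to 158 and 495 FPKM in the same order, against 58.4 to 168 FPKM in normal samples. Endothelial markers summed to 62.1 and 90.4 FPKM, against 34.4 to 67.2 FPKM. Leukocyte, cycling cell, red cell, endothelial, urothelial and fibroblast sums were thus higher in PBOO replicate 2 than in replicate 1. Smooth muscle sums were lower in replicate 2, and so were nerve and glia sums, which mostly reflect Uchl1. With 2 PBOO samples, any list must be higher in 1 of them. The part of these markers in the members' values at week 5 was not tested.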

How the data were processed

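Bladder tissues of rats were assigned to groups from the sample labels. The authors deposited FPKM values of 18507 genes in 11 columns, made from TruSeq libraries with HISAT2, StringTie and featureCounts per the study's methods. The processing notes name mm10, a mouse build, while the annotation and strand of counting are not given in the sources used here. Low values did not fall on whole reads, so no count test was run, and depth is unknown. The study describes the replicates as biological.

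Values were used without further scaling, as log2(FPKM + 0.1), and fold changes are on that scale. Genes whose mean reached 0.5 FPKM were fitted with limma 3.58.1 in R 4.3.3 (eBayes with trend), each week alone and, for the interaction, all 11 samples together, with two-sided p-values and Benjamini-Hochberg adjustment over all genes tested. The fits were tested on simulated data. Members, lists and tests were chosen with earlier results of these data known. Members named with values had the largest or smallest changes in each week, the largest departures from the members' mean or the highest levels, or belonged to 12 well known genes; of other lists, those with the largest changes at an unadjusted p under 0.05. Values of some single genes are not reported here, and these genes stay in all counts and medians. Promoter sequences came from RefSeq (GRCr8). Alternatives were other scalings, a pseudocount of 1, no filter, no trend, a replicate block and leaving out each sample. Rescaling on all but the 10 highest genes was added after seeing the data. Tables and figures used Python 3.11.15, pandas 2.3.3 and matplotlib 3.10.9.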

Additional observations from a re-analysis of the deposited data

Results flagged for a closer look

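The effect of PBOO on the ribosomal protein genes differed between week 4 and week 5 in 73 of the 76 members tested, by the interaction term of the limma fit at an adjusted p under 0.05, against 26.5% of all genes. Rps9 had the widest difference, 1.86 on the log2 scale (week 5 minus week 4), followed by Rps28 at 1.65. The week and the library set cannot be told apart in this difference. Groups of 3 and 2 samples are too small for a test of single outlying samples.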

How the results depend on the processing

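The scaling moved the median of all genes at week 4 from -0.25 to -0.01 (median-ratio scaling), and at week 5 from 0.12 to 0.02. The members' median over that of all genes at week 4 was -0.54 as reported, -0.53 with median-ratio scaling and -0.39 with quantile normalization. The members' median at week 4 was -0.54 with median-ratio scaling over all genes and over other genes, and -0.44 with quantile normalization, under which Rpl10 was at 0.0208. The number lower at an adjusted p under 0.05 was 4 with a pseudocount of 1. Leaving out 1 sample each gave 0 to 73, beside 0 to 1658 of all genes. At week 5 the number of members higher at an adjusted p under 0.05 was 2 with median-ratio scaling, 1 with that scaling on other genes, 1 without the filter, 1 without the trend and 2 with the sum outside the 10 highest genes. The number at an unadjusted p under 0.05 was 9 and 8 with the median-ratio scalings. Leaving out 1 sample each gave 0 to 44 higher and 0 to 1 lower at the adjusted p, 3 to 54 higher and 0 to 1 lower at the unadjusted p, medians of 0.13 to 0.56, and medians over that of all genes of 0.0425 to 0.427. The highest counts and the members lower come from fits with a single PBOO sample, which is assumed to vary like the normal samples. Rpl30 turned to 0.48 without PBOO replicate 1 and was at -1.59 without PBOO replicate 2. For the difference between weeks, the median was 0.79 and 0.80 with the median-ratio scalings, 0.61 with quantile normalization and 0.76 with the sum outside the 10 highest genes. Under quantile normalization 36 members passed at the adjusted and 49 at the unadjusted p, the median over that of all genes was 0.49, and Rpl10 was at -0.10. Leaving out 1 sample each gave medians of 0.907 to 1.303, medians over that of all genes of 0.59 to 0.94, and 0 to 1 members lower at either p, and Rpl30 turned to -1.004 without PBOO replicate 2 of week 5 and was at 1.07 without replicate 1. The cause was not tested in any of these. The other 253 counts and medians kept their direction and stayed within 1.5 times of the reported count or 1 SD between replicates of the reported median.

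Replicate numbers repeat across groups. Deviations of same-numbered samples correlated at 0.15, -0.02 and 0.23 at week 4 and at -0.00 and 0.12 at week 5, so the numbers were not taken to pair the samples. With the replicate block, 75 members at week 4 had an unadjusted p under 0.05 as lower and 0 an adjusted one, 0 members at week 5 were higher at an adjusted and 2 at an unadjusted p, and 43 members differed between weeks at an adjusted p. Depth is unknown, so counting error could not be given.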
